A study of Mus musculus with 9 samples.

Results

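The genes described here mark cardiac fibroblasts, in 2 sets. The resting set holds Pdgfra, Tcf21, Ddr2, Gsn and Dpep1. The activated set holds Cthrc1, Fap, Cilp and Meox1. All 9 symbols were found among the 53465 gene IDs of the count files through their mouse Ensembl ID, and all 9 passed the filter on low counts, which left 13825 genes for testing. The question put to them was how their transcript levels compared between hearts with sham surgery, hearts after coronary ligation, and ligated hearts that had received implanted cells. In short, Cilp and Cthrc1 were higher in both ligated groups than in sham, Dpep1 was lower in the hearts with implanted cells than in sham, and Fap, Meox1 and Tcf21 did not pass the test in any of the 3 comparisons.

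Cardiac fibroblasts lie between the muscle cells and make and maintain the extracellular matrix. In the unharmed heart they carry the receptor PDGFR alpha and the transcription factor TCF21, and after an infarct many of them divide, migrate into the damaged area and lay down scar. Cells taking part in that response are known to express matrix and secreted proteins such as CTHRC1, periostin and CILP, the cell surface protease FAP, and the homeobox factor MEOX1.

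RNA was sequenced from 9 libraries of NOD-SCID mouse hearts, 3 in each group, with the infarct border zone named as the sampled region for every group, sham included. NOD-SCID mice are immunodeficient and lack functional T and B lymphocytes, and all 3 groups share this strain. The sham group had sham surgery only. The ligation group had a coronary artery ligation, and the names of its files call it vehicle treated. The cell group had the ligation and an implantation of FOXO3-GE-MPCs. For cell replicates 2 and 3 the source field names FOXO4-GE-MPCs and FOXO5-GE-MPCs, while title and treatment name FOXO3-GE-MPCs, which was followed. Age, sex, the time after ligation and the species of the implanted cells are not given in the labels used here. A count per mouse gene holds reads of the host and any reads of implanted cells that align to it, and the 2 sources cannot be told apart.

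Libraries held 4549268 to 7515052 gene counts, so that 3 counts corresponded to 0.375 to 0.639 CPM, the unit of all levels below, in which counts are set relative to a library size scaled with TMM factors. Mitochondrially encoded genes took 19.1% to 19.9% of gene counts in sham, 12.5% to 13.9% after ligation and 14.3% in each of the libraries with implanted cells. The labels do not say that replicates came from separate animals, so p-values measure the spread between these libraries. The names inside the files show a shared stem for sham replicates 1 and 2 and for ligation replicates 2 and 3. These pairs differed by more than counting noise, with mean chi-square values of 3.96 and 2.30 per gene against 1.98 to 3.65 in the other replicate pairs, and they were kept as separate samples. Results that changed when each such pair was summed into 1 library are named below.

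The member genes lie on 9 different places of the mouse genome (GRCm38, GENCODE M21). Pdgfra (ENSMUSG00000029231) is at chr5:75152292-75198215 on the plus strand, Tcf21 (ENSMUSG00000045680) at chr10:22817281-22820174 on the minus strand, and Ddr2 (ENSMUSG00000026674) at chr1:169972307-170110762 on the minus strand. Gsn (ENSMUSG00000026879) is at chr2:35256380-35307892 and Dpep1 (ENSMUSG00000019278) at chr8:123186242-123201812, both on the plus strand. Cthrc1 (ENSMUSG00000054196) is at chr15:39076932-39087121 on the plus strand and Fap (ENSMUSG00000000392) at chr2:62500943-62574075 on the minus strand. Cilp (ENSMUSG00000042254) is at chr9:65265180-65280605 on the plus strand and Meox1 (ENSMUSG00000001493) at chr11:101877510-101894374 on the minus strand. Exons of 7 members overlap no other annotated gene. In Pdgfra, 4.55% of exon bases are shared with the antisense gene Gm42802 and 1.66% with Gm42803, and in Ddr2 0.972% are shared with the antisense gene 3110045C21Rik. The strand setting of the counting is not given in the sources used here, so reads of these small stretches cannot be assigned to one partner.

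The 250 bases before the start site are shown for the activated and the resting member with the largest rise after ligation among those in the RefSeq promoter table (GRCm38.p6), Cilp and Ddr2. That table matched 6 of the 9 members with 8 start sites in all, and Cthrc1, Fap and Meox1 had no entry. Each sequence runs 5′ to 3′ on the strand of its gene, and capitals mark a match to 1 of 5 motifs searched on both strands: TGANTCA (the AP-1 site), GGAATG (TEAD), CAGACA (SMAD), CAGCTG (an E-box) and TAATTA (homeodomain). None of these can overlap another in the stretches shown, since at most 1 match was found in each.
Cilp, chr9:65264930-65265179, plus strand: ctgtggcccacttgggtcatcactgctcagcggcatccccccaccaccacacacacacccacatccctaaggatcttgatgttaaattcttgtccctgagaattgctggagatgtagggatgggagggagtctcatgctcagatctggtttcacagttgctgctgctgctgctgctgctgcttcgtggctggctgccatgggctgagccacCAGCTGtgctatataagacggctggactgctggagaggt
Ddr2, chr1:170088945-170089194, minus strand: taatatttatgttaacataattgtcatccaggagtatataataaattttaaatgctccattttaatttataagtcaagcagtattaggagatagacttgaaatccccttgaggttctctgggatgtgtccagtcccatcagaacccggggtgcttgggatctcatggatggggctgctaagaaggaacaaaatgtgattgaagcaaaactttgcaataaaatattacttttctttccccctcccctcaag
The Cilp window, which ends at the annotated start of the gene, held 1 E-box that begins 39 bases before the start. The Ddr2 window held none of the 5 motifs. Its RefSeq start lies 21818 bases inside the gene as GENCODE draws it, so a further start upstream is not covered. Of 32851 mouse windows of this length, 13% held the E-box, 6.75% the AP-1 letters, 12.6% the TEAD letters, 17.1% the SMAD letters and 4.84% the homeodomain letters. Among the other members, Gsn had an E-box in 2 of its 3 windows, Dpep1 had 1 TEAD match beginning 67 bases before its start, and Pdgfra and Tcf21 had no match. A match is a description of letters and shows no binding.

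**Figure D1:**
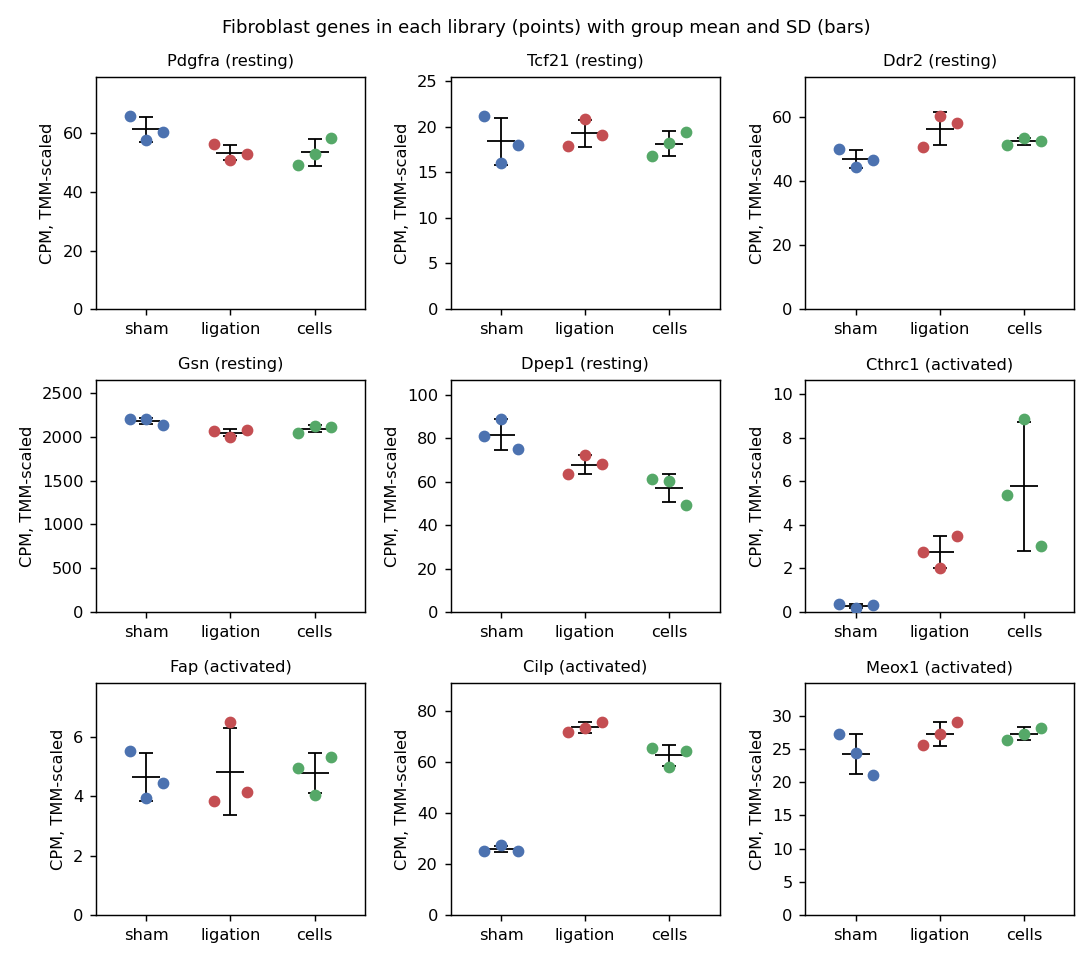
Level of each member in every library, in CPM on a linear axis that starts at 0, with points for the 3 libraries of a group and the mean ± SD. Cilp stands between 25.2 and 27.3 CPM in sham and between 58.0 and 75.9 in the other libraries, Cthrc1 rises from under 0.4 CPM in sham, and the groups of Tcf21 and Fap overlap.

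Per length, Gsn was the most abundant member in every group by a wide margin. Gsn encodes gelsolin, a protein that severs actin filaments and is also made by heart muscle, so that its level in whole tissue is not one of fibroblasts alone. It stood at 690 ± 12.3 CPM per kilobase of exon in sham (SD, n = 3), 648 ± 13.6 after ligation and 663 ± 13.6 with implanted cells. Dpep1, a membrane dipeptidase, came next at 32.9 ± 2.84, 27.3 ± 1.78 and 23.0 ± 2.63 CPM per kilobase in the same order of groups. In sham the order went on with Meox1 at 10.9, Tcf21 at 7.82, Pdgfra at 6.13, Cilp at 6.10, Ddr2 at 5.06, Fap at 0.819 and Cthrc1 at 0.175 CPM per kilobase. Of these neighbours, only Pdgfra and Cilp had overlapping ranges over the 3 sham libraries.

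After ligation Cilp held the third place with 17.3 ± 0.486 CPM per kilobase, ahead of Meox1 at 12.3 and Tcf21 at 8.21. Ddr2 at 6.08 and Pdgfra at 5.33 overlapped, and Cthrc1 at 1.74 stood above Fap at 0.852. With implanted cells the order was the same, with Cilp at 14.7, Meox1 at 12.3 and Tcf21 at 7.71 CPM per kilobase. There the ranges of Ddr2 (5.66) and Pdgfra (5.34) overlapped, as did those of Pdgfra and Cthrc1 (3.62), and Fap was last at 0.843.

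In ligation against sham, 6 of the 9 members passed the test, 3 higher and 3 lower. The background is wide: 38.2% of all tested genes passed, 20.1% higher and 18.0% lower. Among the resting genes 1 was higher and 3 were lower, with a median log2 difference of -0.09, and among the activated genes 2 were higher and 0 lower, with a median of 0.84. The median over all genes tested was 0.01. The calls of Cilp and Cthrc1 were far from the threshold, and the 4 calls among the resting genes were small in size and near it. These libraries are of whole tissue, in which fewer cells of a type and less RNA per cell cannot be told apart.

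Pdgfra encodes a receptor for PDGF ligands, PDGF-A and PDGF-C among them, and is the usual surface marker of cardiac fibroblasts. It stood at 66.0, 57.7 and 60.6 CPM in sham replicates 1 to 3, at 56.3, 51.1 and 53.0 after ligation, and at 49.1, 53.1 and 58.3 with implanted cells. Every ligation library was below every sham library, while 1 library with implanted cells lay within the sham range. The log2 difference of ligation against sham was -0.20 (SE 0.0797, edgeR adjusted p = 0.0490), just past the threshold. That call was lost in 11 of 18 alternative settings, among them library totals in place of TMM factors (-0.02), the replicate block (adjusted p = 0.0609 with edgeR) and summed pairs (-0.21, edgeR adjusted p = 0.0939). It was also lost without sham replicate 1 (-0.15) or 3 (-0.21), without ligation replicate 2 (-0.17) or 3 (-0.22), and without cell replicate 2 (-0.20).

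Ddr2 encodes a receptor tyrosine kinase that binds fibrillar collagen. Its levels were 49.8, 44.3 and 46.5 CPM in sham, 50.5, 60.3 and 58.0 after ligation, and 51.3, 53.5 and 52.4 with implanted cells. All ligation values were above all sham values, the lowest by a narrow gap. The log2 difference of ligation against sham was 0.27 (SE 0.0794, edgeR adjusted p = 0.00957). It fell to 0.23 without sham replicate 2, 0.23 without ligation replicate 2 and 0.24 without ligation replicate 3, each time with an edgeR adjusted p between 0.0535 and 0.0626, and to 0.23 with summed pairs (adjusted p = 0.0562). Ddr2 counts per Pdgfra count were 0.763 ± 0.00759 in sham (SD, n = 3), 1.06 ± 0.145 after ligation and 0.984 ± 0.0765 with implanted cells, a ratio that does not depend on library scaling.

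Dpep1 stood at 81.0, 89.1 and 75.1 CPM in sham and at 63.5, 72.4 and 68.1 after ligation, and the ranges did not overlap. The log2 difference was -0.26 (SE 0.0843, edgeR adjusted p = 0.0188). The call was lost with library totals (-0.07), without sham replicate 2 (-0.19) and without ligation replicate 1 (-0.22). With implanted cells Dpep1 stood at 61.3, 60.5 and 49.6 CPM, below every library of both other groups.

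Gsn showed the smallest change that passed. It stood at 2205, 2196 and 2134 CPM in sham, at 2066, 1996 and 2074 after ligation and at 2043, 2120 and 2115 with implanted cells. The log2 difference of ligation against sham was -0.09 (SE 0.0329, edgeR adjusted p = 0.0344). With library totals it turned to 0.10 and passed in that direction (edgeR adjusted p = 0.0192). Library totals raise the median of all genes by 0.19 here, and Gsn lay below the median gene under both scalings. The call was lost in 6 settings: with no filter on low counts (-0.08), without sham replicate 1 (-0.08), sham replicate 2 (-0.09), ligation replicate 2 (-0.07) or cell replicate 3 (-0.09), and with summed pairs (-0.10).

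Tcf21, the transcription factor that specifies the fibroblast lineage from the epicardium, stood at 21.2, 16.0 and 17.9 CPM in sham, 17.9, 20.8 and 19.1 after ligation and 16.7, 18.2 and 19.4 with implanted cells. The 3 groups overlapped. Its log2 difference of ligation against sham was 0.08, with a 95% interval from -0.19 to 0.35 (edgeR adjusted p = 0.664).

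Cthrc1 encodes a secreted glycoprotein with a short collagen-like stretch and marks the matrix-producing fibroblasts of healing infarcts. It was counted 2, 1 and 2 times in the sham libraries, which is 0.356, 0.165 and 0.317 CPM and below 3 counts in each. After ligation it was counted 13, 14 and 28 times, or 2.77, 2.03 and 3.50 CPM. With implanted cells the counts were 38, 64 and 21, or 5.39, 8.88 and 3.03 CPM. No library of either ligated group came near the sham values, and the ligated groups overlapped each other.

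Over the summed counts, 55 after ligation against 5 in sham, Cthrc1 was 10.1 times higher, with an exact 95% counting interval from 4.07 to 32.3. The fitted log2 difference was 3.24 (SE 0.626, edgeR adjusted p = 0.00032), the 67th largest rise of the 13825 genes tested, a value that depends on the prior count because the sham counts are so few. It was past the threshold in all 18 alternative settings, between 2.98 and 3.44. Only 4.89% of tested genes rose at least 2-fold past the threshold, and Cthrc1 and Cilp were the 2 members among them.

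Cilp encodes cartilage intermediate layer protein, a matrix protein that binds TGF-beta. It stood at 25.3, 27.3 and 25.2 CPM in sham, 71.8, 73.2 and 75.9 after ligation, and 65.7, 58.0 and 64.4 with implanted cells. Each group was separate from the other 2, with the highest values after ligation. The log2 difference of ligation against sham was 1.51 (SE 0.0791, edgeR adjusted p = 5.23e-12), a 2.84-fold rise, and all 18 alternative settings kept it past the threshold between 1.47 and 1.69.

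Fap encodes fibroblast activation protein, a serine protease of the cell surface. It stood at 5.52, 3.95 and 4.44 CPM in sham, 3.84, 6.51 and 4.13 after ligation and 4.96, 4.02 and 5.33 with implanted cells, with all 3 groups overlapping. Its log2 difference of ligation against sham was 0.08 with a 95% interval from -0.48 to 0.64 (edgeR adjusted p = 0.851), and over summed counts, 96 against 83, the ratio was 1.06 with an exact counting interval from 0.783 to 1.44. Leaving out ligation replicate 2, the highest library, turned the log2 difference to -0.20.

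Meox1, a homeobox factor induced in stressed fibroblasts, stood at 27.2, 24.4 and 21.1 CPM in sham, 25.6, 27.2 and 29.1 after ligation and 26.4, 27.3 and 28.2 with implanted cells. The groups overlapped between sham and the other 2. The log2 difference of ligation against sham was 0.18 with a 95% interval from -0.04 to 0.41 (edgeR adjusted p = 0.199). With library totals it was 0.37 (edgeR adjusted p = 0.00885), a move of the same 0.19 as the median of all genes, so that its place relative to the median gene was unchanged.

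**Figure D2:**
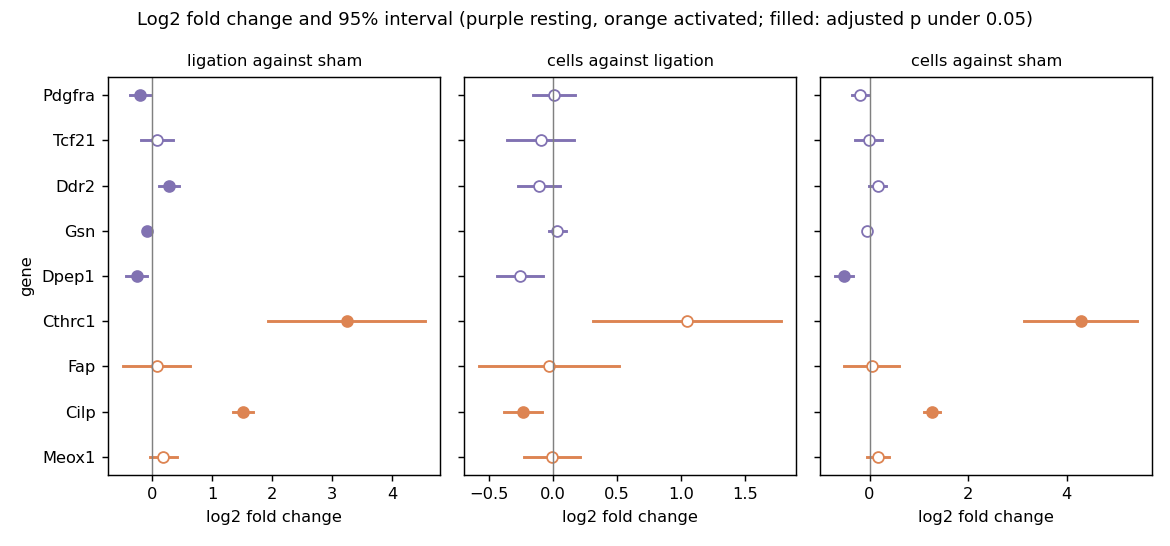
Log2 difference of each member with its 95% interval in the 3 comparisons, filled where the edgeR adjusted p is under 0.05, with an axis of its own range in each panel. Cthrc1 and Cilp stand apart on the right in both comparisons with sham, at 3.24 and 1.51 after ligation and at 4.29 and 1.27 with implanted cells, and the resting genes stay between -0.52 and 0.27.

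Implanted cells against ligation alone gave 1 call among the 9 members, against 9.87% of all tested genes, 4.19% higher and 5.69% lower. The call was Cilp, which was lower, with a log2 difference of -0.24 (SE 0.0695, edgeR adjusted p = 0.0356). In linear terms this is 62.7 ± 4.12 CPM (SD, n = 3) against 73.6 ± 2.07, and no library of one group reached the other. The call did not hold in 8 of 18 settings, at -0.23 with DESeq2 (adjusted p = 0.124), -0.24 with the replicate block (edgeR adjusted p = 0.0553) and -0.23 with summed pairs (edgeR adjusted p = 0.0863). Without ligation replicate 2 or 3 it was -0.24 and -0.21, and without cell replicate 2 or 3 it was -0.18 and -0.26, all 4 short of the threshold.

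Cthrc1 and Dpep1 missed the threshold in that comparison. Cthrc1 had a log2 difference of 1.05 (95% interval 0.31 to 1.78, edgeR adjusted p = 0.0663), and summed counts of 123 against 55 gave a ratio of 2.07 with an exact counting interval from 1.49 to 2.90. The 3 libraries with implanted cells differed among themselves by more than counting error, since the interval of replicate 2 (6.84 to 11.3 CPM) lies above that of replicate 3 (1.87 to 4.62 CPM). The value rests on single libraries: it was 0.59 without cell replicate 2 (edgeR adjusted p = 0.404) and 1.35 without cell replicate 3 (edgeR adjusted p = 0.0157), where it passed, as it did with no filter on low counts. Dpep1 had a log2 difference of -0.26 (95% interval -0.43 to -0.08, edgeR adjusted p = 0.0659), and was -0.17 without cell replicate 3 (edgeR adjusted p = 0.296). It passed without ligation replicate 1 (-0.30), with library totals (-0.29), with no filter (-0.26) and with the replicate block (-0.26, edgeR adjusted p = 0.0435).

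The other 6 members showed no difference that passed between implanted cells and ligation. Pdgfra differed by 0.01 with a 95% interval from -0.16 to 0.17, Gsn by 0.03 (-0.04 to 0.10), Ddr2 by -0.11 (-0.27 to 0.05) and Tcf21 by -0.10 (-0.36 to 0.17), on the log2 scale. Meox1 differed by -0.01 (-0.23 to 0.21). Fap differed by -0.03 with a wider interval from -0.58 to 0.51, since only 96 and 101 counts stood behind it. Their edgeR adjusted p-values lay between 0.435 and 0.977. The set medians were -0.10 for the resting and -0.02 for the activated genes, with 0.00 over all genes tested.

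Implanted cells against sham gave 3 calls, 2 higher and 1 lower, where 40.9% of all tested genes passed, 21.0% higher and 20.0% lower. This comparison shares its sham libraries with the first and its cell libraries with the second, so its values are not separate evidence. Cthrc1 had a log2 difference of 4.29 (SE 0.551, edgeR adjusted p = 2.62e-06) and a summed-count ratio of 20.9 with an exact counting interval from 8.71 to 65.4. Cilp had one of 1.27 (SE 0.0796, edgeR adjusted p = 7.02e-11). Dpep1 had one of -0.52 (SE 0.0849, edgeR adjusted p = 5.32e-05), a 1.43-fold lower level, and these 3 calls held in all 18 alternative settings. Cthrc1 and Cilp were at least 2-fold higher, as were 4.28% of tested genes past the threshold. Dpep1 was the single resting gene with a call there.

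Of the remaining members against sham, Pdgfra lay on the threshold at -0.20 (SE 0.0788, edgeR adjusted p = 0.0502). Of the 18 settings 6 moved it past, among them removal of mitochondrially encoded genes (-0.22), the absence of cell replicate 3 (-0.26), sham replicate 2 (-0.24), ligation replicate 1 (-0.20) or ligation replicate 3 (-0.21). Ddr2 differed by 0.16, Meox1 by 0.18, Gsn by -0.06, Tcf21 by -0.02 and Fap by 0.04 in log2 units, and their edgeR adjusted p-values ran from 0.108 to 0.932. Gsn passed with mitochondrially encoded genes removed (-0.07, edgeR adjusted p = 0.0495). With library totals, which raise the median of all genes by 0.16 in this comparison, Ddr2 (0.32) and Meox1 (0.33) passed, and Gsn turned to 0.10 and passed in that direction (edgeR adjusted p = 0.0148).

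**Figure D3:**
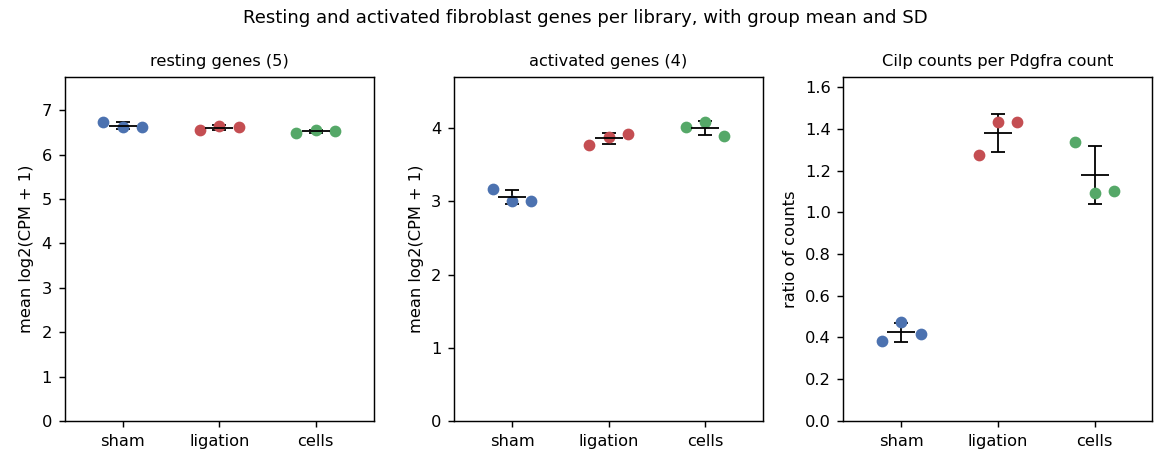
Per library, the mean log2(CPM + 1) over the 5 resting genes and over the 4 activated genes, and Cilp counts per Pdgfra count. The resting mean lies between 6.49 and 6.73 in all libraries, the activated mean between 3.0 and 3.17 in sham and between 3.78 and 4.08 elsewhere, and the Cilp ratio is at most 0.474 in sham and at least 1.09 elsewhere.

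Set side by side, the average of the activated genes differed from sham by more than that of the resting genes. The mean log2(CPM + 1) over the 5 resting genes was 6.65 ± 0.07 in sham (SD, n = 3), 6.61 ± 0.05 after ligation and 6.53 ± 0.03 with implanted cells. Over the 4 activated genes it was 3.06 ± 0.09, 3.86 ± 0.08 and 4.0 ± 0.10. The difference, activated minus resting, was -3.59 ± 0.02, -2.75 ± 0.05 and -2.53 ± 0.10, and its ranges did not overlap between any groups. These means are descriptions of chosen genes with no test. Against sham, Cthrc1 and Cilp carry the shift of the activated set, since Fap and Meox1 did not pass. From ligation to implanted cells Cilp was lower (73.6 to 62.7 CPM), and only Cthrc1 was clearly higher on average (2.77 to 5.76 CPM). That Cthrc1 difference did not pass, its libraries overlapped, and it fell to 0.59 in log2 units without cell replicate 2. Dpep1, in the resting set, was lower there and did not pass either.

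Ratios within a library do not depend on scaling. In both ligated groups Cilp and Cthrc1 had more counts per Pdgfra count than in any sham library, while the ligated groups overlapped each other. Cilp had 0.424 ± 0.0463 counts per Pdgfra count in sham (SD, n = 3), 1.38 ± 0.0901 after ligation and 1.18 ± 0.139 with implanted cells. The ligation range, 1.28 to 1.43, overlapped the range with implanted cells, 1.09 to 1.34, unlike the Cilp levels in CPM. Cthrc1 had 0.00449 ± 0.00142, 0.0516 ± 0.0134 and 0.110 ± 0.0576 counts per Pdgfra count. Dpep1 had 1.34 ± 0.181, 1.28 ± 0.144 and 1.08 ± 0.206 in the same order of groups. Its ranges overlapped, also between sham (1.23 to 1.55) and implanted cells (0.849 to 1.25), unlike the Dpep1 levels in CPM.

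Relatives and partners of the members numbered 20 genes, of which 16 were tested and Avil, Vil1, Dpep2 and Dpep3 were too low. In ligation against sham 5 were higher, 3 lower and 8 did not pass, beside 20.1% of all tested genes higher and 18.0% lower, with a median log2 difference of 0.08. The lower count is near the background. With library totals, which raise the median of all genes by 0.19 in this comparison, 10 were higher and 2 lower. Levels of the 16 are given below in the order sham, ligation, implanted cells.

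Of the ligands that bind PDGF receptors, Pdgfc went from 3.57 ± 1.83 CPM in sham to 7.69 ± 1.54 after ligation (SD, n = 3) and 7.79 ± 0.623 with implanted cells. Its log2 difference of ligation against sham was 1.11 (SE 0.283, edgeR adjusted p = 0.00372). Pdgfb, a ligand made largely by endothelium, went from 134 ± 3.37 to 81.4 ± 6.67 and 81.2 ± 8.56 CPM, a log2 difference of -0.71 after ligation (SE 0.0755, edgeR adjusted p = 2.06e-07). Beside it, the 6 endothelial markers summed to 1891 to 1996 CPM in sham and 1249 to 1329 after ligation; their part in the Pdgfb value was not tested. Pdgfa (24.2, 28.9 and 30.3 CPM), Pdgfd (33.4, 28.7 and 35.4 CPM) and the second receptor Pdgfrb (103, 104 and 94.7 CPM) did not pass in any comparison, and 26.1% of Pdgfa exon bases are shared with another gene.

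Ddr1, the other discoidin domain receptor and more typical of epithelium, went from 31.4 ± 4.97 CPM in sham to 66.6 ± 2.95 after ligation and 67.4 ± 4.07 with implanted cells (SD, n = 3). Its log2 difference of ligation against sham, 1.09 (SE 0.0945, edgeR adjusted p = 1.02e-08), stands beside 0.27 for Ddr2. The difference between both receptors was not tested. The 6 mesothelial and epicardial markers are of a cell layer with epithelial traits. They summed to 33.0 to 44.3 CPM in sham, 228 to 270 after ligation and 187 to 190 with implanted cells. All 6 rose after ligation, where 20.1% of tested genes were higher. With implanted cells against ligation 3 of the 6 were lower, beside 5.69% of tested genes, while Ddr1 differed by 0.01. The part of these markers in the Ddr1 values was not tested. Dpp4, the closest relative of Fap, stood at 6.93 ± 2.01, 15.1 ± 1.46 and 10.7 ± 1.71 CPM in the 3 groups, with a log2 difference of 1.13 after ligation (SE 0.191, edgeR adjusted p = 7.94e-05). Cilp2 stood at 3.71, 6.20 and 7.14 CPM, with a log2 difference of 0.73 after ligation (SE 0.270, edgeR adjusted p = 0.0387) that was lost in 6 of 18 settings: without sham replicate 1 (0.64) or 3 (0.71), without ligation replicate 1 (0.65) or 3 (0.53), with DESeq2 (0.73) and in a fit of both groups alone (0.71).

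In the gelsolin family Svil, which encodes supervillin, rose from 160 ± 5.68 to 263 ± 20.7 CPM after ligation (SD, n = 3), a log2 difference of 0.72 (SE 0.0588, edgeR adjusted p = 4.49e-09), and stood at 259 ± 8.42 with implanted cells. Capg, a capping protein abundant in macrophages, stood at 22.1 ± 2.86, 23.4 ± 0.919 and 14.9 ± 1.84 CPM. Its log2 difference of implanted cells against ligation was -0.66 (SE 0.128, edgeR adjusted p = 0.00155). The 6 macrophage markers summed to 488 to 539 CPM in sham, 967 to 993 after ligation and 394 to 412 with implanted cells. All 6 were lower with implanted cells than with ligation alone, where 5.69% of tested genes were lower. After ligation all 6 were higher than in sham, where 20.1% of tested genes were higher. Capg did not pass there (0.09, edgeR adjusted p = 0.590). The part of these markers in the Capg values was not tested. Flii (133, 144 and 136 CPM) and Scin (1.91, 1.46 and 1.80 CPM) did not pass in any comparison.

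Meox2, the paralogue of Meox1, is an endothelial factor in the heart. It stood at 39.7, 40.7 and 41.1 CPM in sham, 28.3, 22.3 and 28.0 after ligation and 38.7, 41.3 and 35.4 with implanted cells. The ligation libraries were below all others, and sham and implanted cells overlapped. The log2 difference was -0.63 for ligation against sham (SE 0.100, edgeR adjusted p = 3.58e-05) and 0.56 for implanted cells against ligation (SE 0.0989, edgeR adjusted p = 0.000621), 2 values that share the ligation libraries. Of the broadly expressed factors that pair with TCF21, Tcf4 stood at 186, 157 and 169 CPM and fell after ligation with a log2 difference of -0.24 (SE 0.0631, edgeR adjusted p = 0.00443), which was -0.05 with library totals. Tcf3 (47.0, 49.0 and 45.9 CPM) and Tcf12 (47.6, 49.7 and 48.8 CPM) did not pass in any comparison.

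Implanted cells against ligation gave 1 higher (Meox2) and 1 lower (Capg) of the 16 relatives, near the 4.19% and 5.69% of all tested genes. Implanted cells against sham gave 5 higher and 2 lower, where 21.0% and 20.0% of tested genes passed. Higher were Ddr1 at a log2 difference of 1.11, Pdgfc at 1.11, Cilp2 at 0.93, Svil at 0.69 and Dpp4 at 0.62. The 2 lower ones were Pdgfb at -0.72 and Capg at -0.57. The Dpp4 call there was lost without sham replicate 1 (0.49) or 3 (0.53) or cell replicate 1 (0.49).

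A wider list held 15 other resting fibroblast genes, all tested. In ligation against sham, 8 were higher, 3 lower and 4 did not pass, beside 20.1% of tested genes higher and 18.0% lower, a share near that of the 3 lower ones. The median log2 difference was 0.23 beside 0.01 over all genes. Fbln1, a matrix glycoprotein, went from 143 to 293 CPM (log2 difference 1.04), Mfap5, a microfibril component, from 59.8 to 116 (0.95) and Pi16, a marker of adventitial fibroblasts, from 147 to 247 (0.75). Hsd11b1, the enzyme that regenerates active glucocorticoid, went from 42.0 to 24.7 CPM (-0.77), the ferritin receptor Scara5 from 40.1 to 29.1 (-0.47) and Clec3b, which encodes tetranectin, from 123 to 93.3 (-0.40). The edgeR adjusted p-values of these 6 lay between 3.06e-12 and 0.000569.

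With implanted cells against ligation, 0 of these 15 genes were higher and 2 lower, beside 4.19% and 5.69% of tested genes, with a median log2 difference of -0.09. The lower count ranged from 0 to 2 and was under 2 in 8 of 18 settings. They were Hsd11b1 at -0.37 (edgeR adjusted p = 0.0235) and Col15a1, a basement membrane collagen, at -0.22 (edgeR adjusted p = 0.0124). Hsd11b1 lost the call without any one ligation library (-0.35, -0.37 and -0.39) and without cell replicate 1 (-0.31) or 3 (-0.36), with DESeq2 (-0.36) and with summed pairs (-0.37), and Col15a1 without ligation replicate 3 (-0.19) or cell replicate 1 (-0.21) or 2 (-0.19). Against sham, 7 were higher and 5 lower with implanted cells, with a median of 0.26, where 21.0% of tested genes were higher and 20.0% lower. The lower count was 3 with the replicate block and 3 with library totals, and library totals gave 10 higher. There Hsd11b1 stood at -1.14, Scara5 at -0.66 and Clec3b at -0.57, while Fbln1 stood at 1.08, Mfap5 at 0.87 and Pi16 at 0.69.

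**Figure D4:**
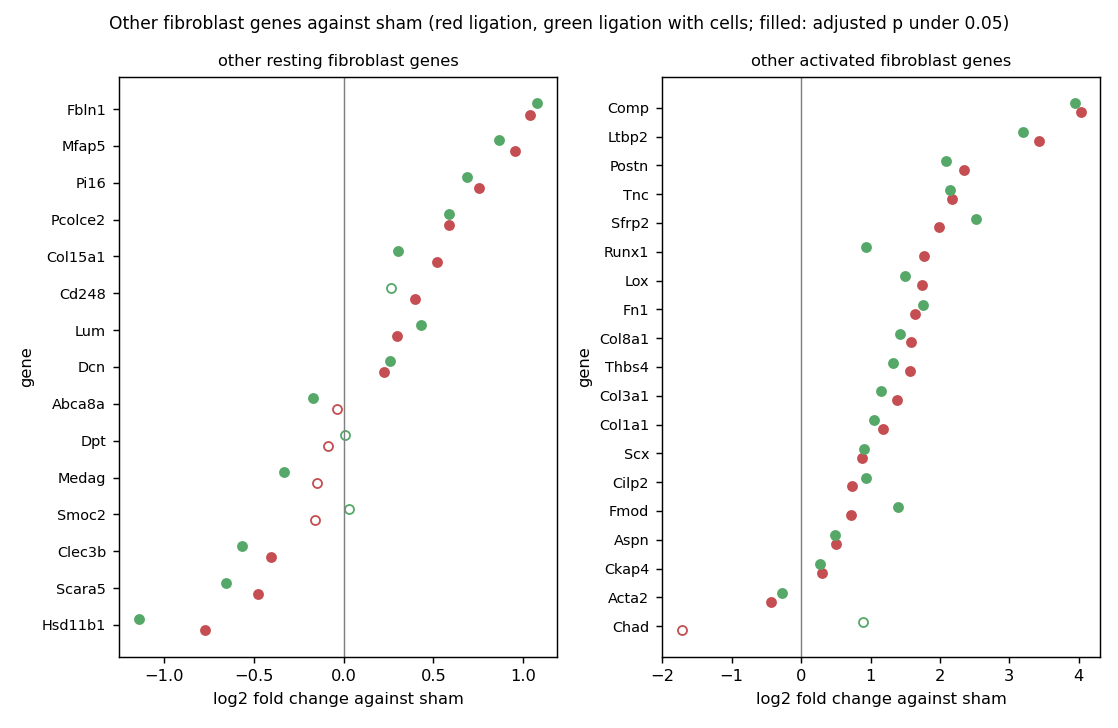
Log2 differences against sham of the genes on the wider resting and activated lists, red after ligation and green with implanted cells, which share the sham libraries. Most activated genes lie to the right of 0, led by Comp at 4.02 and 3.94, with Chad (-1.72) and Acta2 (-0.43) on the left after ligation, and the resting genes spread on both sides of 0.

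Of 20 other activated fibroblast genes 19 were tested, and Tagln was too low. Of Tagln exon bases 67.9% are shared with Pcsk7 and Gm48529, and 8.09% to 8.72% of reads per library were set aside in the files as ambiguous between genes. In ligation against sham 17 were higher (Cilp2 is one of them), 1 lower and 1, Chad, did not pass, with a median log2 difference of 1.57, against a background of 20.1% of tested genes higher and 18.0% lower. Comp, a cartilage matrix protein of late scar fibroblasts, went from 16.4 ± 1.75 to 267 ± 9.63 CPM (SD, n = 3; log2 difference 4.02). Ltbp2, which binds microfibrils, went from 11.6 ± 2.46 to 125 ± 11.5 CPM (3.42), and Postn, which encodes periostin, from 84.3 ± 5.89 to 426 ± 10.1 CPM (2.34). Cthrc1 and Cilp, with 3.24 and 1.51, lay within the range of that list.

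Acta2 was the single gene of that list lower past the threshold, while Chad, with few counts, had a log2 difference of -1.72 that missed it (edgeR adjusted p = 0.0619). Acta2 encodes smooth muscle actin, made by myofibroblasts and by the smooth muscle of vessels, and went from 325 ± 9.65 to 241 ± 2.37 CPM (SD, n = 3; log2 difference -0.43, edgeR adjusted p = 2.76e-07). Beside it stood the 6 smooth muscle and pericyte markers. They summed to 1458 to 1481 CPM in sham, 1045 to 1067 after ligation and 998 to 1039 with implanted cells. After ligation 4 were lower and 2 higher, where 18.0% of tested genes were lower and 20.1% higher. The higher count was 1 in 12 of 18 settings, the replicate block among them. Their part in the Acta2 value was not tested. With implanted cells Acta2 stood at 268 ± 5.85 CPM.

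Implanted cells against ligation gave 4 higher and 3 lower among the 19 activated genes, beside 4.19% and 5.69% of tested genes, with a median log2 difference of -0.03. The alternatives gave 2 to 4 higher and 2 to 5 lower. Higher were Chad (2.62), Fmod (0.68), Sfrp2 (0.53) and Acta2 (0.15), and lower were Runx1 (-0.84), Postn (-0.25) and Col3a1 (-0.23). Fmod, a collagen-binding proteoglycan, stood at 23.2, 21.7 and 27.6 CPM after ligation and 35.3, 38.8 and 43.1 with implanted cells, and Sfrp2, a secreted Wnt modulator, at 19.0, 17.8 and 18.9 against 25.7, 26.1 and 28.5. In both genes all libraries with implanted cells were above all ligation libraries. Chad, which encodes chondroadherin, was low throughout, at 0.213, 0.868 and 0.125 CPM against 3.12, 0.971 and 3.75, and lost the call without ligation replicate 3 (2.09) or cell replicate 3 (2.27). Runx1, a transcription factor of activated and dividing cells, lost it without ligation replicate 3 (-0.80) or cell replicate 2 (-0.66). The Acta2 call was lost in 11 of 18 settings, at 0.12 with library totals, 0.15 with the replicate block (edgeR adjusted p = 0.0631) and 0.16 with summed pairs. It was also lost without sham replicate 1 (0.15), and without any one ligation library or any one library with implanted cells (0.14 to 0.17).

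Postn showed the same order of groups as Cilp. It stood at 436, 427 and 416 CPM after ligation and 335, 376 and 361 with implanted cells, with an edgeR adjusted p of 0.00374. Col3a1, which encodes the chain of type III collagen, stood at 1201, 1220 and 1261 CPM against 1031, 1054 and 1062 (edgeR adjusted p = 0.000314). Against sham, implanted cells gave 17 higher and 1 lower, where 21.0% of tested genes were higher and 20.0% lower, with a median log2 difference of 1.33, Comp at 3.94, Ltbp2 at 3.20, Sfrp2 at 2.51 and Acta2 at -0.28.

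Other cell types in the tissue also differed between the groups, and their part in the fibroblast values was not tested. Beside the counts that follow stand 20.1% of tested genes higher and 18.0% lower after ligation, and 21.0% higher and 20.0% lower with implanted cells against sham. The 7 cardiomyocyte markers summed to 45608 to 47035 CPM in sham, 34843 to 36622 after ligation and 34040 to 34867 with implanted cells, with 5 lower and 1 higher after ligation. The 3 adipocyte markers summed to 9.56 to 11.6 CPM in sham, 175 to 188 after ligation and 166 to 192 with implanted cells, all 3 higher in both comparisons with sham. The 6 endothelial markers were all lower after ligation and stood at 1356 to 1394 CPM with implanted cells. Markers of dividing cells (5 genes) summed to 3.92 to 9.84, 21.7 to 24.6 and 6.19 to 7.77 CPM. After ligation 4 of 4 tested were higher, and Ccnb1 fell below the filter. Birc5 (0.546, 2.13 and 0.471 CPM) passed the filter through the ligation libraries alone, so its part of that count carries no weight.

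Smaller lists are to be read against the same shares, and against 4.19% higher and 5.69% lower from ligation to implanted cells. The 4 Schwann cell markers summed to 19.0 to 25.9 CPM in sham, 22.3 to 26.8 after ligation and 52.9 to 60.6 with implanted cells, with 1 higher and 1 lower after ligation and 1 higher from ligation to implanted cells. The 4 skeletal muscle markers summed to 0.712 to 2.54, 6.37 to 9.59 and 0.694 to 1.58 CPM. After ligation 2 of 2 tested were higher, Pvalb (0.596, 3.18 and 0.0953 CPM) and Tnnt3 (0.821, 3.02 and 0.666 CPM). They passed the filter through the ligation libraries alone, where they were highest, so that count carries no weight. Actn3 and Myh4 fell below the filter, and Myh4 was at 0 in every library of sham and of the cell group. The 3 cartilage markers are of a cell type that also expresses Cilp, Comp and Chad. They summed to 6.76 to 9.88, 14.3 to 16.9 and 16.5 to 18.0 CPM, mostly Sox9 (means of 6.91, 12.3 and 15.4 CPM). Acan stood at 1.44, 3.11 and 1.56 CPM. After ligation 2 of 2 tested were higher, a count that ran from 1 to 3 over 18 settings. Against sham 1 of the 2 was higher with implanted cells. Col2a1, the defining collagen of cartilage, was at 0 in every sham library and below the filter. Lymphocyte markers (5 genes) summed to at most 2.77 CPM in any library, with Ms4a1 at 0 in all 9 and none tested.

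The genes with the closest profile over the 9 libraries were sought among tested genes with a mean of at least 5 CPM, by the root mean square difference of centred log2(CPM + 1) values. Cilp was nearest to C3, the complement component (0.0578), which stood at 275, 729 and 632 CPM in sham, ligation and implanted cells, and to Col3a1 (0.0724), against a spread of 0.648 in Cilp itself. Cthrc1 was nearest to Fasn, the fatty acid synthase (0.370), at 41.1, 141 and 240 CPM, and to Sfrp2 (0.379), both of which rose in the order sham, ligation, implanted cells, against its own spread of 1.02. Dpep1 was nearest to Pltp (0.0562), a phospholipid transfer protein at 53.4, 48.4 and 38.3 CPM, and to Fam193b (0.0686). For the other 6 members the spread over libraries was at most 0.206, and their 2 nearest genes were Chtop and Rer1 for Pdgfra, Commd6 and Plin4 for Tcf21, Ap3d1 and Herc2 for Ddr2, Tprgl and Actn2 for Gsn, Pogk and Cib1 for Fap, and Rnf10 and Copa for Meox1. These are descriptions over libraries that share their groups.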

How the data were processed

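The authors deposited whole-number read counts for each mouse gene, 1 file a library and not normalized, from total RNA extracted with TRIzol and sequenced from NEBNext Ultra RNA libraries, per the labels' protocols. The genome build is mm10, per the submitters' processing notes. Aligner, counter, strand setting and annotation release are not given in the sources used here. The 5 closing lines of each file name no gene and were left out. They held 12.3% to 13.6% of reads.

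Groups and replicate numbers came from the sample titles. Symbols (53274 of 53465 IDs), coordinates and exon lengths came from GENCODE M21. In R 4.3.3 the counts were filtered (filterByExpr), scaled (TMM) and fitted in 1 model over 9 libraries with edgeR 4.0.16 (quasi-likelihood test, two-sided). P-values were adjusted with Benjamini-Hochberg over 13825 genes, and an adjusted p under 0.05 is called past the threshold. The SE is the log2 difference divided by the square root of F. Scripts were tested on simulated data. Figures were drawn with matplotlib 3.10.9.

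Members and lists were chosen with earlier results of these data known, so counts and medians over them are descriptions. Named beyond the members are all relatives tested, the 3 largest changes in each direction per other fibroblast list (mean of at least 1 CPM), and the 2 nearest profiles per member. Acta2 with implanted cells against ligation was added to that rule so that every call of its list is named. Alternatives were RLE scaling, library totals, 2 other filters, DESeq2 1.42.0, fits of 2 groups, removal of mitochondrially encoded genes, a replicate block, and each library left out. Summing libraries with a shared header stem was added after seeing the data. Counting intervals and floors (3 counts) cover counting error only. Exon bases shared with other genes reach at least 20% in Itgam, Medag, Pdgfa, Pln, Dpep2 and Tagln, whose counts are uncertain. Protein sequences were not used here.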

Additional observations from a re-analysis of the deposited data

How the results depend on the processing

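Of the members' calls, those of Cilp and Cthrc1 against sham in both comparisons and of Dpep1 with implanted cells against sham kept direction and threshold in all 18 alternatives. With library totals in place of TMM factors, the median gene moved by 0.19 (ligation against sham), -0.03 and 0.16 (implanted cells against ligation and against sham) on the log2 scale. Ligation against sham then had 4966 genes higher and 1346 lower, with 5 members higher and 0 lower, against 2783, 2494, 3 and 3. Implanted cells against sham then had 4612 genes higher and 1698 lower and 6 members past the threshold, 5 of them higher, and against ligation 2 members, both lower. Under the same totals Gsn turned to 0.10 after ligation and 0.10 with implanted cells against sham, Tcf21 to 0.14 with implanted cells against sham, and Pdgfra to -0.0239 with implanted cells against ligation. The activated minus resting mean in sham moved to -3.56.

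Without a filter on low counts, 1 member was lower after ligation, and 2 members, 1 of them higher, passed with implanted cells against ligation. DESeq2 gave 0 members in that last comparison. Against sham, RLE scaling gave 2 members lower with implanted cells, and removal of mitochondrially encoded genes gave 5 members, 3 of them lower. With summed pairs 3 members passed after ligation, 1 of them lower, and 0 with implanted cells against ligation, where Pdgfra, Fap and Meox1 turned to -0.00561, 0.00636 and 0.00424.

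Leaving out each library in turn gave 3 to 6 members past the threshold after ligation, 1 to 3 of them lower. Implanted cells against ligation gave 0 to 2 members, 0 to 1 higher and 0 to 2 lower, with 364 to 587 genes higher, and against sham 1 to 2 members lower. Uncalled members whose sign turned were Tcf21 (-0.0103 to 0.191) and Fap (-0.20 to 0.21) after ligation, Pdgfra (-0.0617 to 0.0645), Fap (-0.16 to 0.25) and Meox1 (-0.0483 to 0.0463) with implanted cells against ligation, and Tcf21 (-0.109 to 0.0930) and Fap (-0.0595 to 0.180) against sham.

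Replicate numbers share only a number: same-numbered libraries had deviation correlations between -0.123 and 0.144 over 9414 genes. With the number as a replicate block, Pdgfra after ligation (-0.20, edgeR adjusted p = 0.0609) and Cilp with implanted cells against ligation (-0.24, 0.0553) lost their calls, Dpep1 in the latter (-0.26, 0.0435) gained one, and no other member's call changed. Acta2 with implanted cells against ligation (0.15, 0.0631) also lost its call, and the other resting genes lower with implanted cells against sham went from 5 to 3. The cause of these changes was not tested. Depth limits Cthrc1 in sham (5 counts in all) and Fap (83 to 101 counts a group).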
